A study of Mus musculus with 4 samples.

Results

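The comparison described here sets spots at the border of each mouse brain organoid section against spots inside it. A spot is 1 position of a barcoded capture array, a small region of tissue that can hold several cells or parts of cells. The neighbours of a spot were the other spots of the same section at a squared grid distance of at most 4, of which there can be 8. Spots with 5 or fewer neighbours were called edge and spots with all 8 were called interior. Of 1979 spots in all, 362 were edge, 1190 were interior, and the 427 spots with 6 or 7 neighbours entered no test. The rule used positions only and no measured level.

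The sections came from organoids grown in suspension from embryonic stem cells of the genotype CARLIN/Cas9, with 5000 cells in a well at the start, Matrigel embedding later on and 3 months of culture. All groups share the cell line, the genotype and the protocol and differ in what the medium held from day 9. VitaminA is B27 supplement with vitamin A at 2%, ATRA is all-trans retinoic acid at 1 µM, BMS753, an agonist of retinoic acid receptor alpha, was given at 1 µM, and BMS961+BMS641 is the joint treatment with agonists of receptors gamma and beta at 0.1 µM. Each treatment has 1 section, several organoids were frozen in 1 mould before sectioning, and messenger RNA was captured by poly-T and sequenced. The 4 sections serve as the replicates of the comparison of edge with interior. Its error therefore holds the variation of the edge minus interior difference between sections, which also differ in treatment. No treatment can be tested on its own.

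Organoids in culture commonly lack a blood supply, and oxygen and nutrients reach the cells by diffusion from the surface. In neural organoids an outer layer of cells that live near the medium is commonly set against an inner zone in which low oxygen, stress and cell death are frequent. Hypoxia genes such as Vegfa and Slc2a1, stress response genes, and genes of matrix, meninges or choroid plexus at the outer surface are therefore the usual places to look for a difference between the border and the inside.

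The VitaminA section held 91 edge and 335 interior spots, the ATRA section 93 and 395, the BMS753 section 97 and 272, and the BMS961+BMS641 section 81 and 188. All spots of a section were connected, except that the BMS961+BMS641 section had a group of 342 spots and a group of 23. Border spots also lined gaps inside the sections, as the map of spots shows, so an edge spot is not always at the outer surface of an organoid.

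**Figure D1:**
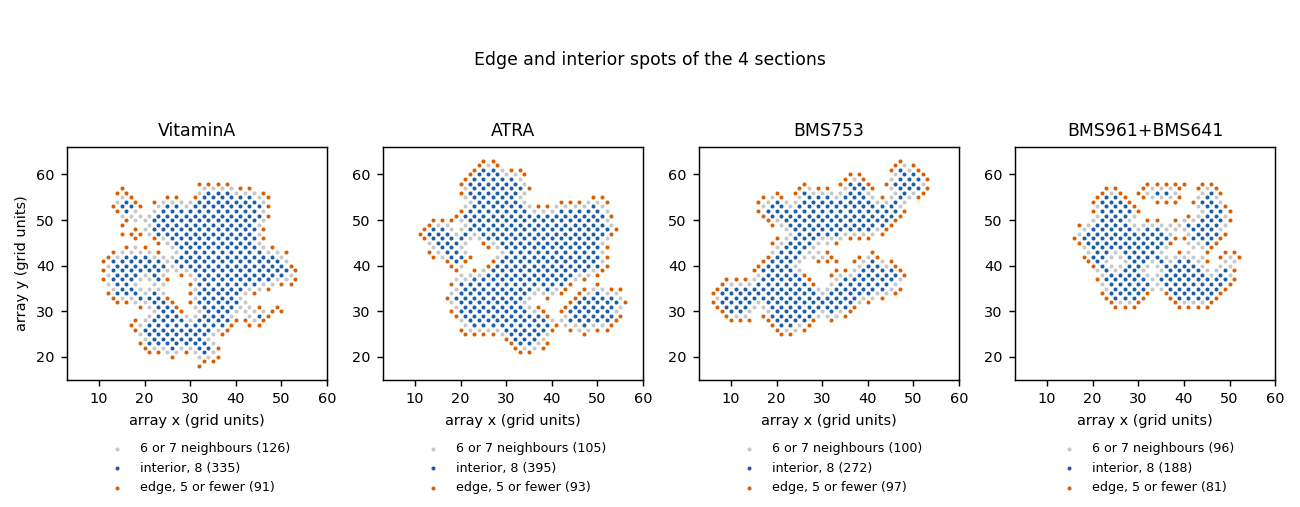
Map of the 4 sections, with array x and y in grid units. Each point is 1 spot, orange for edge (5 or fewer neighbours), blue for interior (8 neighbours) and grey for 6 or 7 neighbours. Orange spots follow the outline of each section and the gaps within it.

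The values are a normalised signal per gene and spot. Read and molecule numbers per spot are unknown, and values therefore carry no counting interval. A section listed 20800 to 21639 genes, with 19783 common to the 4. The pan-neuronal list, whose 20 genes were all listed, summed to between 1646 and 2284 ppm (parts per 1000000 of the signal of a spot) over the 8 classes of spots. The astrocyte filament gene Gfap stood between 0.258 and 3.83 ppm, below the level needed to enter the test, and the neuronal tubulin gene Tubb3 between 17.1 and 51.0 ppm. Sox2 and Ttr were not analysed here.

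Edge spots carried less signal than interior spots in every section. As deposited, the median sum of a spot was 275510 at the edge and 566241 in the interior of VitaminA, 151282 and 314919 in ATRA, 203431 and 387452 in BMS753, and 318406 and 983310 in BMS961+BMS641. The edge was lower in each section, though single spots overlapped widely. The mean log2 sum at the edge minus that in the interior was -0.90 for VitaminA, -0.86 for ATRA, -0.60 for BMS753 and -0.91 for BMS961+BMS641. Over the sections this gave -0.82 ± 0.15 (SD, n = 4), a sign seen in 4 of 4 sections, with an exact two-sided sign-flip permutation p of 0.125. That p is the smallest that 4 sections can give. As a ratio, interior spots had 1.87, 1.81, 1.51 and 1.88 times the signal of edge spots, in the same order of sections. The deposited values are quantile-normalised and multiplied by a factor of the spot, so the sum need not follow the amount of RNA. Fewer cells under a spot, less RNA captured per cell and the way that factor was set cannot be told apart here.

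Fewer genes were seen per edge spot in 3 of the sections. A gene counted as seen when it stood above the lowest class of the spot, which is the run of lowest values that the deposited files assign in the order in which genes are listed. The mean number of such genes was 4174 at the edge and 4905 in the interior of VitaminA, 3358 and 3708 in ATRA, and 3223 and 3744 in BMS753. In BMS961+BMS641 it was 4909 at the edge and 4633 in the interior, so this section went the other way. The log2 ratio of edge over interior was -0.13 ± 0.15 (SD, n = 4; exact two-sided sign-flip permutation p = 0.25), so it did not exceed the spread between sections. The 10 leading genes of a section took 14.0% of the signal at the edge and 14.5% in the interior of VitaminA, 13.6% and 13.7% in ATRA, 12.3% and 13.1% in BMS753, and 16.6% and 16.5% in BMS961+BMS641. The mean difference was -0.28 ± 0.43 percentage points (SD, n = 4; exact permutation p = 0.375).

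**Figure D2:**
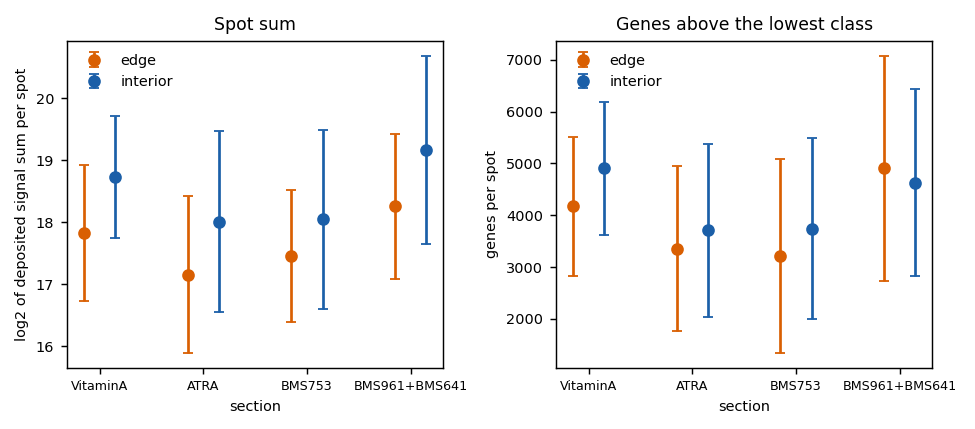
Spot sums and genes per spot by position. The left panel shows the mean log2 of the deposited signal sum per spot and the right panel the mean number of genes above the lowest class, each for edge (orange) and interior (blue) spots of the 4 sections, with bars of 1 SD over spots. Edge sums lie below interior sums in all 4 sections, while the number of genes is lower at the edge in 3 and higher in BMS961+BMS641.

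Each spot was then divided by its own sum, and the mean level over the spots of a class was compared gene by gene, as log2 of the edge level plus 1 ppm minus log2 of the interior level plus 1 ppm. Few genes differed. Of the 13967 genes with a mean level of at least 5 ppm, limma with Benjamini-Hochberg adjustment called 6 (0.043%) at an adjusted p below 0.05, of which 1 was higher at the edge (0.00716%) and 5 were lower (0.0358%). At an unadjusted p below 0.05 there were 1112 genes (7.96%), 580 higher (4.15%) and 532 lower (3.81%). All 6 calls were absent from the test without the BMS961+BMS641 section, in which the smallest adjusted p was 0.0698. Without ATRA there were 56 calls and without BMS753 39, and both held all 6 of these genes. Both runs use sections of the main test, so they are no separate support for its calls. Compared only within quartiles of the spot sum, which itself differed between edge and interior, no gene was called (smallest adjusted p 0.0702).

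Lin9, which encodes a subunit of the MuvB core of complexes that control cell cycle genes, fell at the edge. Its mean level was 253 ppm at the edge and 381 ppm in the interior of VitaminA, 53.1 and 106 ppm in ATRA, 33.3 and 91.7 ppm in BMS753, and 83.6 and 192 ppm in BMS961+BMS641. Within each section the edge was lower, although the sections differed so much in level that edge and interior values overlapped across sections. The mean difference was -1.05 (SE 0.12, 95% interval -1.30 to -0.80, n = 4 sections), which is a level 2.07 times higher in the interior, with an adjusted p of 0.000196 by limma. Here and for every gene below, SE and interval are those of limma, which draws the variance of a gene towards a trend over all genes. They are therefore not the plain spread of the 4 sections, whose SD for Lin9 was 0.36. In 15 of 16 quadrants, 4 per section, the edge level lay below the interior level. Lin9 was above the lowest class in 86.8% of edge and 96.7% of interior spots of VitaminA, 25.8% and 43.5% in ATRA, and 28.9% and 33.5% in BMS753. BMS961+BMS641 differed, with 60.5% of edge spots and 55.3% of interior spots, and its median spot stood at 37.6 ppm at the edge and 24.3 ppm in the interior. In that section the lower mean at the edge was thus not a lower share of spots. Lin9 alone was called with the lowest class set at 0 (difference -1.03, adjusted p = 0.0123 by limma).

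By number of neighbours, the mean log2 level of Lin9 over the 4 sections was 6.31 in edge spots, 7.07 in spots with 6 neighbours, 6.71 with 7 and 7.36 with 8. The lowest mean was at the edge and the highest in the interior, with no even step between them.

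Lclat1, which encodes an acyltransferase that acts on lysophospholipids and cardiolipin, fell too. It stood at 315 ppm at the edge and 410.2 ppm in the interior of VitaminA, 120 and 207 ppm in ATRA, 56.4 and 133 ppm in BMS753, and 86.1 and 193 ppm in BMS961+BMS641. The mean at the edge was lower in all 4 sections, least in VitaminA. In BMS961+BMS641, however, 59.3% of edge and 54.3% of interior spots stood above the lowest class, and the median edge spot, at 30.8 ppm, was above the median interior spot. With the index of the tie class in place of the signal the difference was -0.20, and 1 section was higher at the edge. The mean difference was -0.89 (SE 0.12), an interior level 1.85 times that of the edge, with an adjusted p of 0.0012 by limma. Single spots weighed on these means, since 1 spot held 55.8% of the interior sum in ATRA and 59.4% in BMS961+BMS641.

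Klhdc1, a gene of the kelch domain family whose product recruits substrates to a ubiquitin ligase, had the lowest mean difference of the 6. Its levels were 27.7 ppm at the edge and 43.6 ppm in the interior of VitaminA, 4.70 and 14.4 ppm in ATRA, 13.6 and 30.1 ppm in BMS753, and 18.5 and 111 ppm in BMS961+BMS641. The last section had by far the widest gap, and there 1 spot held 86.6% of the interior sum, while more edge spots (29.6%) than interior spots (22.9%) stood above the lowest class. Over the sections Klhdc1 fell by 1.42 on the log2 scale (SE 0.22, adjusted p = 0.00869 by limma).

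Arhgef11, which encodes an activator of the small GTPase RhoA, stood at 304 ppm at the edge and 402 ppm in the interior of VitaminA, 152 and 211 ppm in ATRA, 64.4 and 136 ppm in BMS753, and 122 and 202 ppm in BMS961+BMS641. In all 4 sections a smaller share of edge than of interior spots was above the lowest class, with 84.6% against 93.1%, 46.2% against 58.0%, 34.0% against 47.8%, and 65.4% against 68.6%. A single spot held at most 11.3% of an edge or interior sum. The gene fell by 0.67 (SE 0.11, adjusted p = 0.00998 by limma), and the edge was lower in 14 of 16 quadrants. Without VitaminA its adjusted p was 0.0503.

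Got1l1, a relative of the cytosolic aspartate aminotransferase gene, fell by 0.51 (SE 0.09, adjusted p = 0.0492 by limma), just inside the threshold. It stood at 287 ppm at the edge and 309 ppm in the interior of VitaminA, 365 and 589.7 ppm in ATRA, 309 and 496 ppm in BMS753, and 488 and 725 ppm in BMS961+BMS641. The VitaminA difference, -0.11, was the smallest, and the share of spots above the lowest class was lower at the edge in all 4 sections. The median spot was lower at the edge in VitaminA and ATRA only. It stood at 28.7 ppm at the edge and 28.1 ppm in the interior of BMS753, and at 151 and 129 ppm in BMS961+BMS641.

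Tmem41b, which encodes a lipid scramblase of the endoplasmic reticulum needed to form autophagosomes, was the 1 gene that rose at the edge. Levels were 34.2 ppm at the edge and 24.4 ppm in the interior of VitaminA, 26.9 and 10.6 ppm in ATRA, 98.8 and 29.9 ppm in BMS753, and 23.9 and 11.2 ppm in BMS961+BMS641. The mean difference was 1.11 (SE 0.18, adjusted p = 0.00998 by limma), or 2.17 times the interior level. At most 25.3% of the edge spots of a section stood above the lowest class, and in BMS753 1 spot held 89.6% of the edge sum. Without spots near the limits of the array the difference was 0.37 (adjusted p = 0.699). Within quadrants the edge was higher in 10 of 16.

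**Figure D3:**
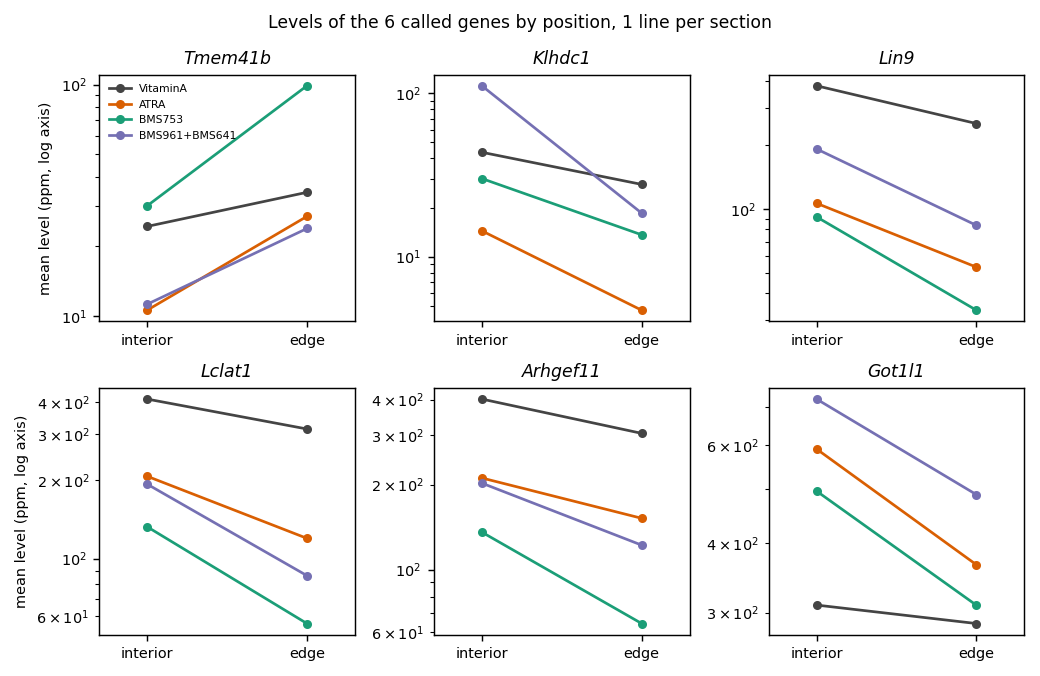
Levels of the 6 genes that passed the test, in mean ppm of the signal of a spot on log axes, for interior and edge spots. Each line joins the 2 classes of 1 section (black VitaminA, orange ATRA, green BMS753, violet BMS961+BMS641). Lines rise to the edge for Tmem41b alone and fall for the other 5 genes in all 4 sections, and sections differ in level more than the classes do.

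Next in rank below the calls were genes of 1 sign in all 4 sections. There were 2153 such genes (15.4%), 1251 higher at the edge (8.96%) and 902 lower (6.46%). None of those described next passed the test, so their values are given without a claim of change. Among genes with lower values at the edge, Appbp2, whose product binds the tail of the amyloid precursor protein, had a mean difference of -0.72 (adjusted p = 0.126 by limma), with 23.2 ppm against 43.5 ppm in VitaminA and 50.2 ppm against 101 ppm in BMS961+BMS641. Epha7, an ephrin receptor gene of axon guidance, had -0.67, with a range over sections from -1.29 in BMS753 to -0.31 in BMS961+BMS641. Adgrg2, an adhesion receptor gene, had -0.60 and Ndel1, whose product regulates dynein in migrating neurons, -0.58. Mdm4, an inhibitor of p53, had -0.51, as had Agfg2, and Nipal2 had -0.44. Next to none of the level of these 7 genes came from the lowest class (at most 1.05% in a section), and all 7 were still lower at the edge in all 4 sections with that class set at 0.

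The genes next in rank with higher values at the edge behaved otherwise. They were Snx6, a sorting nexin gene (0.50), Mex3d, an RNA-binding protein gene (0.46), the lactate receptor gene Hcar1 (0.44), Zfp777 (0.42), Rem2 (0.41), the ciliary transport gene Ttc21b (0.41), Keg1 (0.39), Tldc2 (0.36), the keratin gene Krt24 (0.33), the beta-defensin gene Defb20 (0.32) and the splicing factor gene Cdc5l (0.32), with adjusted p-values from 0.41 to 0.598 by limma. For Hcar1 between 82.3% and 84.0% of the level came from the lowest class, and the median over these 11 genes of the highest such share in a section was 67.7%. With the lowest class set at 0, 7 of the 11 were still higher at the edge in all 4 sections.

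The place of a gene in the deposited files moved with the difference. In all but 1 spot of each section, every gene at 0 stood before every gene of the lowest positive run in the order of the file, which is the same in all files, so values in that run reflect order and not expression. The Spearman correlation across genes between that order and the edge minus interior difference was -0.04 in BMS961+BMS641, and in the other sections 0.37 (VitaminA), 0.25 (ATRA) and 0.33 (BMS753). The lowest class held 8.25% of the signal at the edge and 4.90% in the interior of VitaminA, 9.30% and 7.55% in ATRA, 15.2% and 11.2% in BMS753, and 6.14% and 6.32% in BMS961+BMS641. It weighed more at the edge in the same 3 sections that had fewer genes seen there. Genes were also put in 5 equal groups by their place in the files, and in the last of them 688 were higher at the edge in all 4 sections and 15 lower. With the lowest class set at 0 these counts were 133 and 223, and the correlations with order lay between -0.04 and -0.01.

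**Figure D4:**
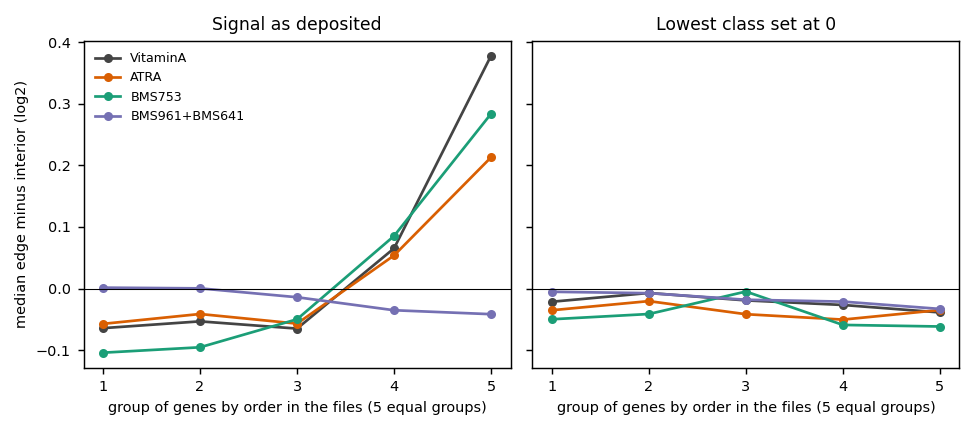
Median edge minus interior difference (log2) in 5 equal groups of genes by their order in the files, 1 line per section. With the signal as deposited (left) the last group stands at 0.38 in VitaminA, 0.28 in BMS753 and 0.21 in ATRA, and at -0.04 in BMS961+BMS641. With the lowest class set at 0 (right) all medians lie between -0.06 and 0.

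Sections shared little of their edge pattern. Taken across 13967 genes, and genes are no independent replicates, the differences of VitaminA and BMS753 had a Spearman correlation of 0.21, those of VitaminA and ATRA 0.16 and those of ATRA and BMS753 0.14, while the 3 pairs with BMS961+BMS641 lay between -0.05 and -0.02. Their sign changed with the setting. With the largest connected group alone, which leaves out the separate group of 23 spots, these 3 pairs lay between 0.01 and 0.04. The correlation of BMS961+BMS641 with file order was then 0.04. Within quadrants, with the group of 23 spots kept, the 3 pairs lay between 0.05 and 0.06. With the lowest class set at 0 all 6 pairs lay between -0.01 and 0.01. Differences of at least 2-fold on that log2 scale were common within a section and rarely shared. In VitaminA 145 genes were higher at the edge by that much (1.04%) and 210 lower (1.5%), in ATRA 173 (1.24%) and 347 (2.48%), in BMS753 217 (1.55%) and 376 (2.69%), and in BMS961+BMS641 192 (1.37%) and 220 (1.58%). In the higher direction 655 genes passed 2-fold in 1 section, 33 in 2, 2 in 3 and 0 in all 4. In the lower direction the numbers were 997, 75, 2 and 0.

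Gene lists that fit an organoid surface or core were then described by their members. No member of any of the 34 lists was called, against 6 of all 13967 genes, and list medians of the mean difference lay between -0.11 and 0.09 beside 0.02 for all genes tested. Counts of members of 1 sign can be read beside the 8.96% of all genes that were higher and the 6.46% that were lower in all 4 sections. Some members had that sign as deposited only. When the lowest class was set at 0, Opalin, Hk2, Ndufs3, Bbc3, Itgb1, Hey2 and Rfng were higher at the edge in 2 of 4 sections, and Dlx2, Slc17a7, Dnajb9, Syt5 and Tmsb4x in 3 of 4. Of those lower as deposited, Itga2 was lower in 2 of 4 sections in that setting, and Map2, Gja1, Slc4a4, Erg, Pfkm, Bcl2l1 and Wnt7a in 3 of 4.

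In the hypoxia response list, 1 of 19 tested genes was higher at the edge in all 4 sections and 3 were lower, with a median of -0.02. The 3 were Egln1, an oxygen sensor that marks hypoxia-inducible factors for destruction (-0.52), Ak4, a mitochondrial adenylate kinase gene (-0.53), and Epas1, the gene of hypoxia-inducible factor 2 alpha (-0.29), each with an adjusted p of 0.597 or 0.598 by limma. Ak4 stood at 106 ppm at the edge and 152 ppm in the interior of VitaminA but at 26.8 and 27.9 ppm in BMS961+BMS641. Vegfa, the vascular growth factor gene, had 14.7 ppm at the edge against 12.7 ppm in the interior of VitaminA and 4.51 against 6.15 ppm in BMS961+BMS641, with a mean difference of 0.03 (SE 0.24). Slc2a1, the glucose transporter gene, had -0.20 (SE 0.25).

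Energy metabolism showed no call either. Of 13 glycolysis genes 2 were higher at the edge in all 4 sections, the lactate transporter gene Slc16a1 (0.29) and Hk2 (0.10), and 1 was lower, Pfkm (-0.43). The lowest class gave 58.4% to 74.5% of the Slc16a1 level and 31.3% to 46.4% of the Hk2 level, and with it set at 0 their differences were 0.29 and -0.06. The list had a median of -0.11, but the VitaminA median was 0.20. Of 15 nuclear genes of the respiratory chain 2 were higher in all 4 and 3 lower, with a median of -0.05. Ndufs3 was higher (0.17, but -0.55 with the lowest class set at 0) and Ndufa9 lower (-0.46), both of them complex I genes. Sdhc, a subunit gene of succinate dehydrogenase, stood at 3.56 ppm at the edge and 14.2 ppm in the interior of VitaminA, 2.44 and 7.12 ppm in ATRA, 8.96 and 13.9 ppm in BMS753, and 4.55 and 6.52 ppm in BMS961+BMS641. Its edge values were lower in each section, with a 95% interval of the mean difference from -1.57 to -0.42 (SE 0.28, adjusted p = 0.54 by limma). With the lowest class set at 0 the respiratory chain list had a median of -0.38, with 4 of 15 genes lower in all 4 sections and 0 higher, and the hypoxia response list -0.21, beside -0.04 for all genes, of which 7.55% were then lower in all 4. Respiratory chain medians by section were -0.16, -0.29, -0.23 and -0.23 in that setting, in the order VitaminA, ATRA, BMS753 and BMS961+BMS641. All 4 had the same sign, as had the section medians of all genes (-0.04 to -0.02). These are low genes: the 29 listed members together held 233 to 424 ppm as deposited, and Sdhc stood above the lowest class in at most 17.6% of the spots of a class. No respiratory chain gene was called in it, and Lin9 was the 1 gene called.

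No stress, damage or death gene was called. Of 15 genes of the integrated stress and unfolded protein response 1 was higher in all 4 sections, the chaperone gene Dnajb9 (0.29), and 1 lower, Sesn2 (-0.46). Of 19 genes of apoptosis and p53 targets, 1 was higher, Bbc3, which encodes the death-promoting protein Puma (0.27), and 3 were lower, among them the survival genes Bcl2 (-0.28) and Bcl2l1 (-0.32). Bbc3 had 66.7 ppm at the edge and 56.0 ppm in the interior of VitaminA and 53.1 and 45.7 ppm in BMS961+BMS641, with an adjusted p of 0.598 by limma. Between 55.2% and 79.1% of that level was signal of the lowest class, and with it set at 0 the difference was 0.16. Among 14 immediate early genes, which respond to activity and to handling, Fosl1 was higher in all 4 (0.43) and Nr4a1 lower (-0.50), and of 9 heat shock genes only Hspa4 had 1 sign, lower at the edge (-0.43). Setting the lowest class at 0 gave a heat shock median of -0.16 and an immediate early median of -0.20, beside -0.04 for all genes. On average 8 of 9 heat shock genes were then lower, beside 56.4% of all genes, and 2 were lower in all 4 sections, beside 7.55%. By section the heat shock medians ran from -0.21 in BMS961+BMS641 to 0.02 in VitaminA. As deposited, the summed level of the 19 listed heat shock genes did not fall with them. It was 760 ppm at the edge and 802 ppm in the interior of VitaminA, but 946 and 671 ppm in ATRA. In BMS753 the sums were 1134 and 538 ppm, and in BMS961+BMS641 879 and 626 ppm. Which members carried these sums was not examined. Immediate early medians went both ways, from -0.32 in ATRA to 0.12 in BMS753. Proliferation genes had a median of 0.06, with Top2a higher in all 4 (0.42) and the replication helicase gene Mcm6 (-0.37) and Cenpf (-0.51) lower. Mki67 went both ways, from -0.82 in VitaminA to 0.94 in ATRA.

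No neuronal list held a call. The pan-neuronal list had medians below 0 in every section and the glutamatergic list went both ways. The GABAergic list had medians above 0 in every section, from 0.02 to 0.07, beside -0.03 to 0.04 for all genes. Section medians of 1 sign were not particular to neuronal lists. Those of the oligodendrocyte lineage lay between 0.01 and 0.12, those of astroglia between -0.20 and -0.02, and the endothelial ones between -0.16 and -0.02. Of 19 tested pan-neuronal genes 3 were lower in all 4 sections and 0 higher, namely Mapt, the gene of tau (-0.33), Elavl3 (-0.37) and Map2, the gene of a protein of dendrites (-0.28). The list medians by section were -0.06, -0.04, -0.09 and -0.11 in VitaminA, ATRA, BMS753 and BMS961+BMS641, while those of all genes were 0.04, 0.04, 0.04 and -0.03. With the lowest class set at 0 the pan-neuronal median was 0.00 and the GABAergic median 0.01, beside -0.04 for all genes. Within quartiles of genes above the lowest class they were -0.02 and -0.13, beside -0.07 for all genes. Of 26 genes of synaptic vesicle release 5 were lower in all 4 and 1 was higher. Sv2b, a synaptic vesicle protein gene, had -0.37 (SE 0.10, adjusted p = 0.509 by limma) and Syt5 0.31. Of 39 axon guidance genes 4 were lower in all 4 sections, with the semaphorin gene Sema5b at -0.40 (SE 0.10, adjusted p = 0.41 by limma) and Slit2 at -0.30, and 2 were higher. Among GABAergic genes 3 of 10 were higher in all 4, Dlx2 (0.56), Dlx5 (0.21) and Erbb4 (0.08), and 0 lower. The lowest class gave 22.3% to 83.8% of the Dlx2 level, and Dlx5 was higher in 1 of 4 sections within quadrants (-0.16). Glutamatergic genes were split, with Slc17a7, the vesicular glutamate transporter gene, higher (0.39) and the receptor subunit gene Gria4 lower (-0.22).

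Glial and other cell type lists were similar. Of 13 astroglia genes 3 were lower in all 4 sections and 0 higher, Sparcl1 (-0.37), the gap junction gene Gja1 (-0.34) and Slc4a4 (-0.21), and the list median was -0.05. Slc1a3, the glial glutamate transporter gene, had 0.01 (SE 0.14). Of 6 tested neural progenitor genes none had 1 sign. Myelin-related Cldn11 was lower (-0.32) and Opalin higher (0.18), but Opalin had -0.28 with the lowest class set at 0. Of 11 endothelial genes 2 were lower in all 4 sections, the lymphatic receptor gene Flt4 (-0.23) and the transcription factor gene Erg (-0.09), and 0 were higher. The microglia and macrophage list held Cx3cr1 at -0.45 and Adgre1 at 0.20. Of 8 tested genes of the meninges and 10 of the choroid plexus, 2 tissues that lie at surfaces of the brain, 0 had 1 sign in all 4 sections. Their medians were 0.09 and 0.01. The summed choroid plexus level was 532 ppm at the edge and 582 ppm in the interior of VitaminA, 358 and 317 ppm in ATRA, 415 and 364 ppm in BMS753, and 387 and 374 ppm in BMS961+BMS641, so edge and interior overlapped.

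Matrix and adhesion genes held no call, and single members went both ways. Of 36 genes of the basement membrane and its receptors 1 was higher and 2 were lower in all 4 sections. That list had medians below 0 in every section, from -0.08 to -0.01, beside -0.03 to 0.04 for all genes. With the lowest class set at 0 its medians ran from -0.06 to 0.01. Of 40 collagen genes 3 were higher and 2 lower in all 4 sections, with a median of -0.01. Col8a2 had 0.22, Col5a3 0.21 and the basement membrane gene Col4a1 -0.20, and Col1a1 ranged from -1.10 in BMS753 to 1.03 in ATRA. The integrin gene Itgb1, whose product binds matrix, had 61.9 ppm at the edge and 47.4 ppm in the interior of VitaminA, 66.1 and 53.3 ppm in ATRA, 96.8 and 82.0 ppm in BMS753, and 68.2 and 59.0 ppm in BMS961+BMS641. It was higher at the edge in each section, by 0.28 on average (SE 0.11, adjusted p = 0.598 by limma). The lowest class gave 42.9% to 79.1% of its level, and with it set at 0 the difference was 0.13, with 2 of 4 sections higher. Itga2, another integrin gene, had -0.13. Loxl4, an enzyme gene of collagen crosslinking, had 0.60 (SE 0.22, adjusted p = 0.598 by limma), with 15.3 ppm against 6.43 ppm in ATRA and 14.6 ppm against 9.73 ppm in VitaminA, but a difference of 0.02 in BMS961+BMS641. In the mesenchyme list Postn, a matrix protein gene with a mean level of only 5.08 ppm, was lower in all 4 (-0.67). Plat, the gene of tissue plasminogen activator in the list of matrix proteases and crosslinking, was lower in all 4 as well (-0.37). Single members of other lists were lower too, Isg15 of the interferon response (-0.20) and Fdft1 of cholesterol synthesis (-0.22), while Tmsb4x, which binds actin, was higher (0.19).

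Of the signalling lists, the retinoid pathway, through which the treatments act, had 0 of 23 tested genes of 1 sign and a median of 0.01. The receptor gene Rarb, itself a target of retinoic acid, stood at 200.4 ppm at the edge and 191 ppm in the interior of VitaminA, 134 and 148 ppm in ATRA, 168 and 205 ppm in BMS753, and 159 and 146 ppm in BMS961+BMS641, with a mean difference of -0.06 (SE 0.10). Its edge was higher in 2 sections and lower in 2. In the TGF-beta pathway the ligand gene Tgfb2 (0.28) and the signal transducer gene Smad4 (0.19) were higher in all 4 of the sections and 0 of 28 genes were lower. The list as a whole did not lean that way, with a median of -0.08 and section medians all below 0, from -0.15 to -0.01. In the Notch pathway Numbl (0.75), Hey2 (0.18) and Rfng (0.21) were higher and 1 of 23 genes was lower, and with the lowest class set at 0 the values were 0.81, 0.07 and 0.12. Among 42 Wnt pathway genes 4 were lower, with the ligand genes Wnt7a (-0.45) and Wnt4 (-0.31) among them, and the receptor gene Fzd1 was higher (0.43). The pluripotency factor genes Klf4 and Pou5f1 had -1.07 (SE 0.31, adjusted p = 0.597 by limma) and -0.13 (SE 0.29). Klf4 was lower at the edge in all 4 sections, from 0.538 ppm against 8.50 ppm in ATRA to 15.8 against 17.8 ppm in VitaminA.

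**Figure D5:**
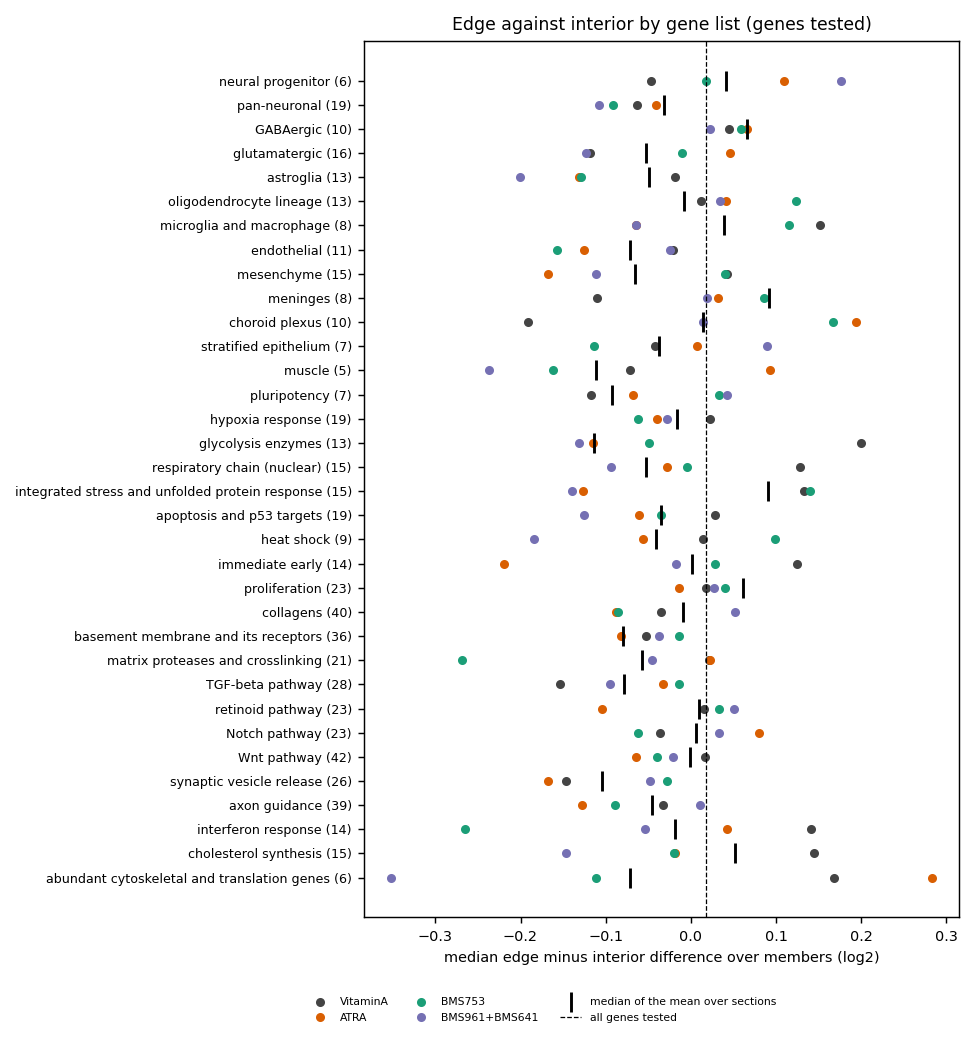
Median edge minus interior difference (log2) over the tested members of each of 34 gene lists, with the number of members in brackets. Points are the 4 sections, black bars the median of the mean over sections, and the dashed line the median of all genes tested (0.02). Points of most lists lie on both sides of 0, and none of the members passed the test.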

How the data were processed

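Spatial transcriptomes of 4 organoid sections, 1 per treatment, were used. The deposited values are a quantile-normalised signal per gene and spot, multiplied by a factor of the spot, as the values show. The submitters' processing notes name mm9 as the genome. Aligner and counter: not given in the sources used here. Symbols in the files were matched to mouse names (19686 as symbols, 74 as synonyms, 23 unmatched). The members and the gene lists were chosen with earlier results of these data known.

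Each spot was divided by its sum, and a class level was the mean over its spots in ppm. Differences of log2(level + 1 ppm), which understate changes of low genes, were tested with limma 3.58.1 (R 4.3.3, trend, section as block) over 13967 of 19783 genes (70.6%) with a mean of at least 5 ppm, with Benjamini-Hochberg adjustment at 0.05. Sections, not spots, are the replicates. Named were the calls, filled up to 12 per direction with genes of 1 sign in all 4 sections of at least 20 ppm ranked by their smallest difference, up to 3 such members per list, and fixed genes. A gene picked by this rule is not reported here. Alternatives changed scaling, pseudocount, filter, classes, spots used, strata and model. Other computations ran in Python (3.11.15) with pandas (2.3.3), numpy (2.4.6), matplotlib (3.10.9) and scipy (1.17.1). The class means and the limma step were tested on simulated spots. Those were drawn independently, without a tied lowest class and without division by the spot sum, so these features were not covered.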

Additional observations from a re-analysis of the deposited data

Results flagged for a closer look

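Of 132 results with a value in each of the 4 sections, 12 had 1 section far from the other 3. The limit used marks about 1 in 20 by chance for independent values with a normal spread. Many of these results are genes picked for 1 sign in all 4 sections, so that rate need not hold here and the 12 are not read as an excess. The values are edge minus interior differences on the log2 scale. ATRA stood apart for Map2 (-0.88, others -0.15 to -0.03), Erbb4 (0.25, others 0.01 to 0.03), Erg, an endothelial transcription factor gene (-0.27, others -0.06 to -0.02), and Krt24 (0.27, others 0.35 to 0.36). BMS961+BMS641 stood apart for Ndufa9, a complex I gene (-1.32, others -0.18 to -0.16), Mapt (-0.74, others -0.25 to -0.15) and Vegfa (-0.38, others 0.12 to 0.20). BMS753 stood apart for Mdm4 (-0.97, others -0.40 to -0.31), Nipal2 (-0.72, others -0.38 to -0.34) and Dnajb9 (0.62, others 0.13 to 0.21). VitaminA stood apart for Cldn11 (-0.50, others -0.27 to -0.25) and Cdc5l (0.39, others 0.29 to 0.30).

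In BMS961+BMS641 both measures of spots other than the sum had the opposite sign to the other 3 sections. The log2 ratio of genes above the lowest class was 0.0836 there and -0.23 to -0.14 elsewhere, and the share of the 10 leading genes differed by 0.15 percentage points there and by -0.80 to -0.03 elsewhere. With 1 section per treatment this difference was not tested.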

How the results depend on the processing

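The count of 6 called genes moved with the processing, and the cause was not tested. It was 1 with the lowest class set at 0, with no division by the spot sum, within quadrants, and with the index of the tie class in place of the signal, an alternative chosen after seeing the data. It was 2 without the 10 leading genes, 3 with an edge of 4 neighbours or fewer, 3 with the mean of log2 over spots (0 of them shared), and 11 with an interior of 7 or 8 neighbours (5 shared). It was 0 in limma without trend (smallest adjusted p 0.647, 854 genes at an unadjusted p below 0.05), within quartiles of the spot sum (0.0702, 1534 genes) and within quartiles of genes above the lowest class (0.0996, 996 genes). Leaving out 1 section gave 0 (without BMS961+BMS641, 2020 genes at an unadjusted p below 0.05) to 56 calls (without ATRA). With no replicate block, that is with the pairing of edge and interior by section left out, limma called 0 and 5 genes had an unadjusted p below 0.05. Under the other alternatives there were 4 to 9 calls. The lower spot sum of the edge kept its sign under every alternative run, from -1.08 to -0.67. None of the 6 called genes changed direction. The depth behind the signal is unknown.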

Other observations

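Within single sections some genes had wide gaps between edge and interior that the other sections did not share. These genes were chosen after their values were seen, as the 5 highest and 5 lowest differences of a section among genes of at least 20 ppm, and have no test. In BMS961+BMS641, Nnmt, which encodes nicotinamide N-methyltransferase, stood at 3.25 ppm at the edge and 277 ppm in the interior, a difference of -6.03 beside -1.66 for VitaminA, -1.20 for ATRA and 0.54 for BMS753. A single interior spot held 97.4% of its interior sum. The mitochondrial carrier gene Slc25a16 (4.63 against 168 ppm) and the neuronal vesicle protein gene Nsg1 (11.9 against 123 ppm) likewise rested on 1 spot, with 97.6% and 93.1% of the interior sum.

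Flt1, a receptor gene of vascular growth factor, stood at 605 ppm at the edge and 134 ppm in the interior of BMS961+BMS641, above the lowest class in 80.2% of edge and 76.1% of interior spots, with median spots at 104 and 87.4 ppm. One spot held 37.0% of its edge sum, and the differences in VitaminA, ATRA and BMS753 were -0.12, -0.20 and -0.65. Kdr, a related receptor gene, stood at 43.9 against 10.4 ppm in BMS753, where 1 spot held 74.4% of the edge sum, and was negative in the other sections (-1.11, -0.30 and -0.11). Flt4, the third receptor gene of the family, was lower at the edge in all 4 sections (-0.18, -0.13, -0.41 and -0.18). Ucp1, the uncoupling protein gene of brown fat, was at 117 ppm at the edge and 15.5 ppm in the interior of BMS753, where 1 spot held 75.7% of the edge sum and 11.3% of edge spots stood above the lowest class. It was at 9.45 and 47.4 ppm in ATRA, and had 1.37 in BMS961+BMS641 and -0.60 in VitaminA.

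In VitaminA the lower genes rested on more spots. Dhrs3, which reduces retinaldehyde and is a target of retinoic acid, stood at 13.4 ppm at the edge and 35.6 ppm in the interior, above the lowest class in 22.0% and 39.4% of spots, with differences of -1.34 here, -0.88 in BMS961+BMS641, -0.69 in ATRA and 0.30 in BMS753. Dgcr8, which encodes a partner of Drosha in microRNA processing, was seen in 14.3% of edge and 33.1% of interior spots there, at 12.5 against 37.6 ppm. Arap2, a GTPase-activating protein gene, was seen in 29.7% and 48.4% of spots, at 14.6 against 32.9 ppm, and had a negative difference in all 4 sections (-1.12, -0.05, -0.24 and -0.26).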
